A study of Oryza sativa with 12 samples.

Results

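The 4 H3 libraries of the series, 2 from oschz1 and 2 from NIP, were compared chromosome by chromosome and in bins of 1 Mb. They are 4 of the 12 samples deposited. The others are 4 H2A.Z libraries and 4 inputs without antibody. Groups come from the sample titles. NIP is the rice cultivar Nipponbare and carries no mutation in OsChz1. The label oschz1 names a mutant of OsChz1, and the study's methods describe a CRISPR/Cas9 line in which a small deletion ends the protein early. It is 1 line, so any other change it carries goes with the genotype. Seedlings of both genotypes were 30 days old and had grown under 14 h of light and 10 h of dark. Each library was made from pooled seedlings and averages over their tissues, so fewer cells of a type and less H3 per cell cannot be told apart. The methods name 2 replicates per genotype without saying whether they were separate sowings, so every p-value measures only the spread between these samples.

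Histone H3 is a core histone that sits in every nucleosome together with H4, H2A and H2B. Because nearly all nuclear DNA is wrapped in nucleosomes, an antibody against H3 recovers most of the genome, and H3 is used in plant chromatin work as a measure of nucleosome content against which variants or modifications are read. CHZ-domain proteins, first described in budding yeast, are chaperones of histone dimers that contain H2B. Other chaperones handle H3, although the paper cites work in which a human CHZ-domain protein bound H3 and H2B in vitro. A peak is an interval on a 200 bp grid that was called from ChIP reads against input. A peak of H3 thus marks a place where the H3 library as a whole stood above its input, not the only places that hold H3.

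The oschz1 libraries held 53043 and 49030 peaks, and the NIP libraries held 54026 and 51367. ChIP reads inside peaks numbered 14466571 and 9179714 in oschz1, against 13961812 and 9985812 in NIP, and input reads inside peaks 3397616 and 2871210 in oschz1, against 3585633 and 2629037 in NIP. Replicate 1 was thus the deeper library in both genotypes. Peaks on chromosomes 1 to 12 covered 55.9 and 50.5 Mb in oschz1 and 57.5 and 52.3 Mb in NIP. The median ChIP count of a peak was 213 and 148 reads in oschz1 and 202 and 151 reads in NIP. The median width was 800 bp in every library, and the widest peak reached 13800 and 13400 bp in oschz1, against 14600 and 12600 bp in NIP. Between 55 and 64 peaks of each library lay on other sequences and were left out of what follows.

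No chromosome separated the genotypes. Over the 12 chromosomes together, oschz1 had 137 ± 7.61 peaks per Mb and NIP 141 ± 5.02 (SD, n = 2 each). The length under peaks was 143 ± 10.2 kb per Mb in oschz1 and 147 ± 9.92 kb per Mb in NIP (SD, n = 2 each). Both differences were smaller than the replicate SD of 6.45 peaks and 10.1 kb. The exact permutation test of 2 libraries against 2, run on both sides, gave p = 0.667 for both, and no arrangement of 4 libraries reaches below 0.333.

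The oschz1 mean was lower on 12 of 12 chromosomes in both measures, yet the values of the genotypes overlapped on all 12. The difference in peak density was between -4.38% on chromosome 7 and -1.84% on chromosome 1. In covered length it was between -4.61% on chromosome 12 and -1.17% on chromosome 9. Within replicate 1, oschz1 was lower than NIP on 11 of 12 chromosomes in peaks and in covered length, and within replicate 2 on 12 of 12. Replicate 1 was above replicate 2 on every chromosome in both genotypes, and on each chromosome the gap between replicates exceeded the gap between genotypes. The sign of the difference did not hold under other choices. With only peaks of a deposited fold of at least 2, oschz1 was higher in peaks and in covered length on 12 of 12 chromosomes, and without oschz1 replicate 2 it was higher in covered length on 12 of 12.

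The chromosomes themselves differed in the same way in all 4 libraries. Chromosome 3 had the greatest covered length in each library, with 158 and 145 kb per Mb in oschz1 and 164 and 147 kb per Mb in NIP. Chromosomes 9 and 10 followed, with 158 and 142 kb per Mb on chromosome 9 in oschz1 against 158 and 146 kb per Mb in NIP. Chromosome 12 had the least in each library, at 139 and 126 kb per Mb in oschz1 and 145 and 132 kb per Mb in NIP. It also had the fewest peaks, 132 and 122 per Mb in oschz1 and 135 and 129 per Mb in NIP. The difference between chromosomes 3 and 12 within a library was larger than the difference between genotypes on any chromosome.

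**Figure D1:**
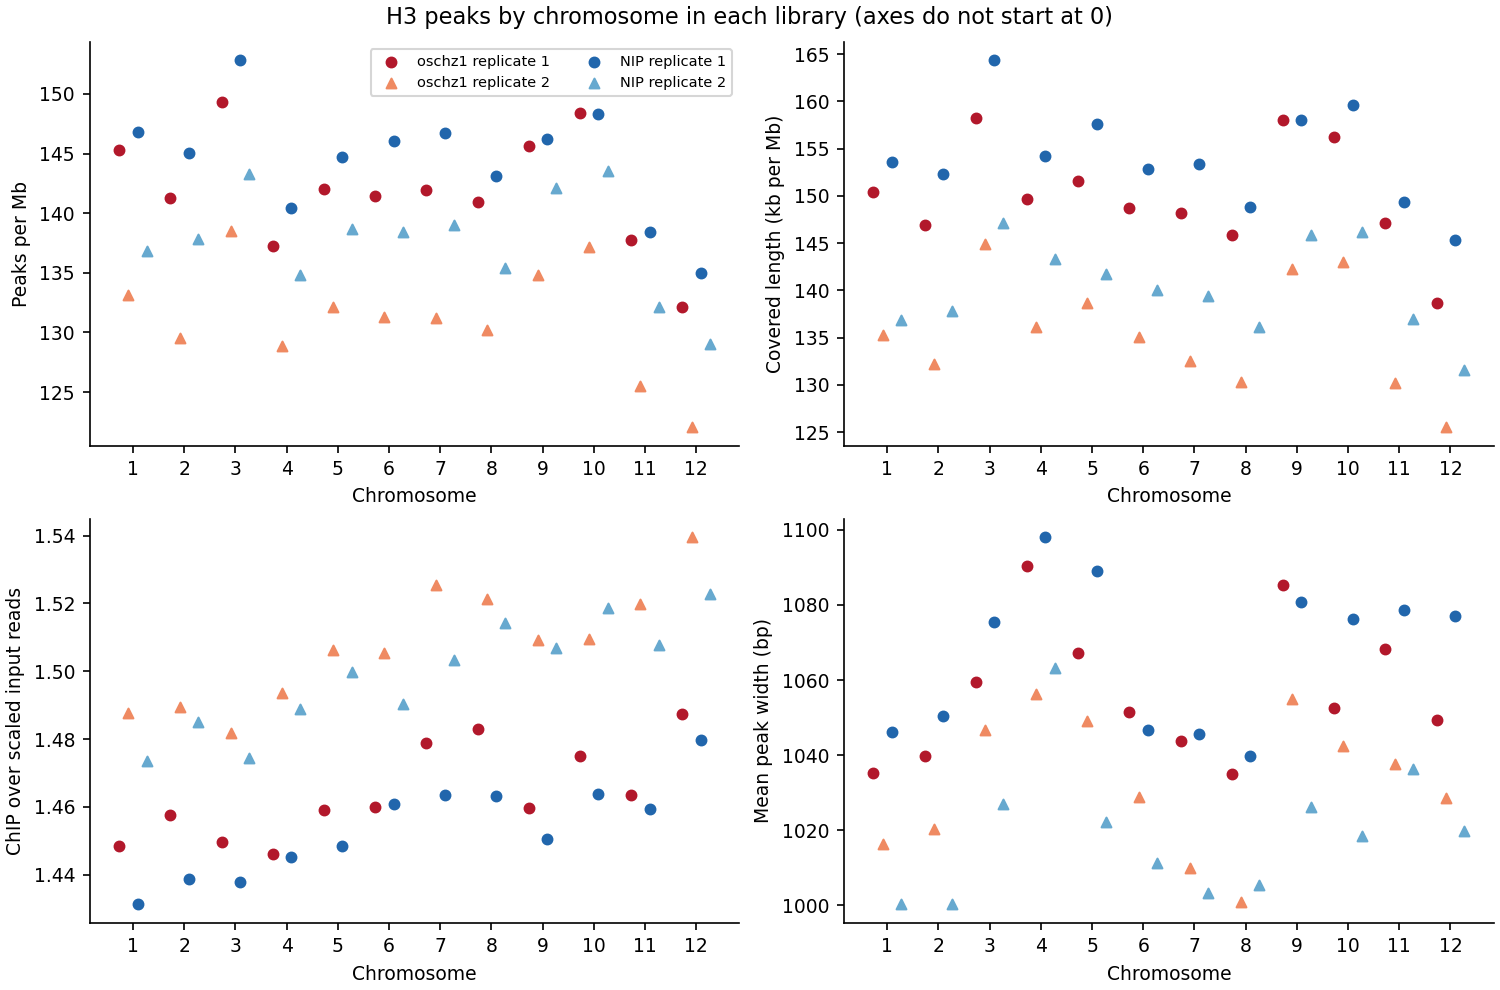
H3 peaks per Mb, covered length in kb per Mb, summed ChIP over scaled input reads, and mean peak width in bp (y axes, not starting at 0) for chromosomes 1 to 12 (x axis). Each point is 1 library, oschz1 in reds left of NIP in blues, circles for replicate 1 and triangles for replicate 2; the genotypes overlap on all 12 chromosomes while replicate 1 lies above replicate 2 in peaks, covered length and width and below it in ChIP over input.

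ChIP over input was measured as the summed ChIP reads of a chromosome's peaks over their summed input reads, scaled by the ratio of library sizes recovered from the deposited fold. It was 1.48 ± 0.0302 in oschz1 and 1.47 ± 0.0315 in NIP (SD, n = 2 each; exact permutation p = 0.667). The oschz1 mean was higher on 12 of 12 chromosomes by 0.0572% to 1.26%, within the replicate SD on every one. Chromosome 12, with the least covered length, had the highest ratio in all 4 libraries, at 1.49 and 1.54 in oschz1 and 1.48 and 1.52 in NIP. Chromosomes 1 and 3 were at or near the bottom. On chromosome 1 the ratio was 1.45 and 1.49 in oschz1 against 1.43 and 1.47 in NIP. Here the shallower replicate 2 was the higher one on all 12 chromosomes in both genotypes. Without the scaling of input, the sign of the genotype difference turned on 12 of 12 chromosomes, to -0.141 to -0.0979, because the recovered constants were 2.91 and 2.12 in oschz1 and 2.68 and 2.54 in NIP.

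Mean peak width was 1044 ± 16.6 bp in oschz1 and 1042 ± 33.2 bp in NIP (SD, n = 2 each; exact permutation p = 1.0). The genotype difference was positive on 8 chromosomes and negative on 4, and within the SD on all 12. Chromosome 4 had the widest peaks in all 4 libraries, 1090 and 1056 bp in oschz1 and 1098 and 1063 bp in NIP. Chromosome 8 was at the low end, with 1035 and 1001 bp in oschz1 and 1040 and 1005 bp in NIP.

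The next question was whether a chromosome's share changed relative to the rest of its library. In limma over the 12 chromosomes, 0 passed an adjusted p of 0.05 in peaks, covered length, ChIP over input or width, so the share called was 0% in each. At an unadjusted p under 0.05 there were 0, 1, 0 and 1 chromosomes in these 4 measures, and chromosome 9 was the one in both cases. Its log2 difference was 0.03 in covered length (SE 0.0114, limma adjusted p = 0.307) and 0.02 in width (SE 0.0088, limma adjusted p = 0.302). Without NIP replicate 1, 3 chromosomes passed in peaks, and without NIP replicate 2, 2 did.

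In bins of 1 Mb the H3 landscape repeated closely. A total of 373 bins had at least 1 peak in each library. Covered length ran from 82.0 to 241 kb per Mb in oschz1 replicate 1, from 77.8 to 212 in oschz1 replicate 2, from 83.8 to 235 in NIP replicate 1 and from 81.0 to 233 in NIP replicate 2. The correlation of covered length between libraries over the 373 bins was 0.923 for the oschz1 replicates, 0.937 for the NIP replicates and 0.882 to 0.918 between genotypes. These bins share library, depth and base composition, and the values are descriptions. Correlations were lower for ChIP over input, at 0.635 for the oschz1 replicates, 0.678 for the NIP replicates and 0.620 to 0.697 between genotypes. For peak width they were 0.846, 0.867 and 0.839 to 0.866 in the same order, and for peaks 0.880, 0.863 and 0.826 to 0.870.

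By the mean of the 4 libraries, the bin with the greatest covered length lay at 19 to 20 Mb of chromosome 3. It held 241 and 212 kb under peaks in oschz1 and 233 and 233 kb in NIP, and its peaks were also the widest by that mean, averaging 1474 and 1384 bp in oschz1 and 1458 and 1441 bp in NIP. The next bin, at 20 to 21 Mb of chromosome 3, had the most peaks in 3 of the 4 libraries, with 191 and 177 in oschz1 and 187 and 179 in NIP. At the other end, 30 to 31 Mb of chromosome 6 held 82.0 and 87.2 kb in oschz1 and 84.8 and 81.0 kb in NIP. The bin at 15 to 16 Mb of chromosome 4 held 88.0 and 80.2 kb in oschz1 and 87.0 and 81.4 kb in NIP. In each of these bins the values of the 2 genotypes overlapped, while the highest and lowest bins differed by more than 2-fold in every library. By the same mean, ChIP over input was highest at 14 to 15 Mb of chromosome 4, with 1.52 and 1.70 in oschz1 and 1.57 and 1.62 in NIP.

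Covered length was lower toward chromosome ends. With each chromosome divided into 10 parts of equal length, part 1 averaged 134 and 123 kb per Mb in oschz1 and 139 and 129 in NIP. Part 5 averaged 160 and 144 kb per Mb in oschz1 and 169 and 151 in NIP, and part 10 averaged 133 and 122 kb per Mb in oschz1 and 136 and 126 in NIP. All 4 libraries had this form. Width followed it, with means of 1002 and 994 bp in oschz1 and 1015 and 983 bp in NIP in part 1, against 1125 and 1099 bp in oschz1 and 1141 and 1074 bp in NIP in part 5. Over the bins of a library, covered length went with peaks (correlation 0.811 to 0.835) and with width (0.628 to 0.675), and opposite to ChIP over input (-0.354 to -0.202).

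**Figure D2:**
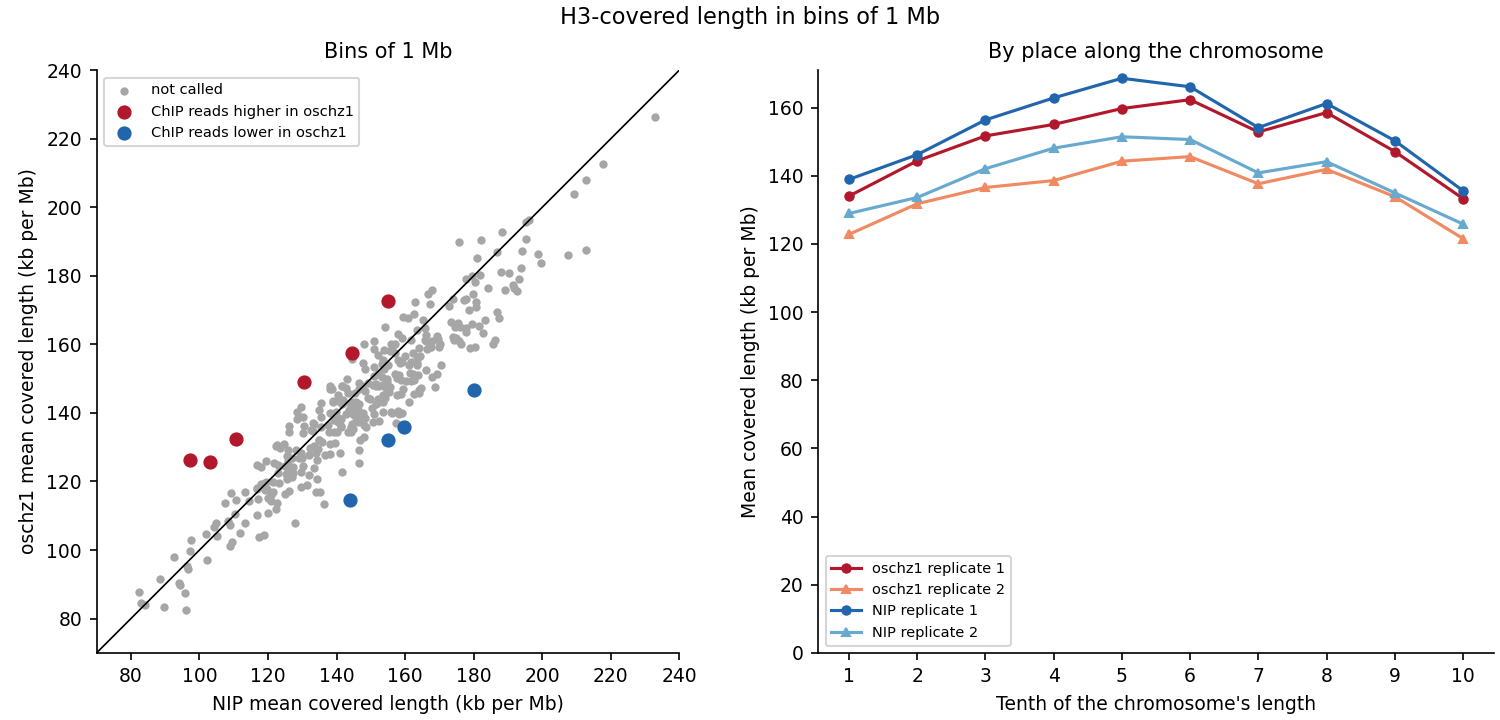
Left, mean covered length of each 1 Mb bin in oschz1 (y, kb per Mb) against NIP (x, kb per Mb) with the line of equality, coloured where the ChIP reads of the bin differed at an adjusted p of 0.05. Right, mean covered length (y, kb per Mb) of bins by part of the chromosome (x, 10 parts of equal length) in each library; all 4 curves are lowest in parts 1 and 10, and the 10 coloured bins lie off the line, 6 above it and 4 below.

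Tested bin by bin with limma, none of 373 bins passed an adjusted p of 0.05 in covered length, peaks, ChIP over input or width. That is 0% in each measure, with 3, 10, 2 and 10 bins at an unadjusted p under 0.05. The bins leaned one way without passing. The log2 difference in covered length was negative in 258 of 373 bins with a median of -0.04, and the difference in peaks was negative in 274 with a median of -0.05. In covered length the 2 oschz1 values were under the lower NIP value in 49 bins, 13.1%, and over the higher NIP value in 12 bins, 3.22%. In peaks the shares were 21.7% below and 4.56% above. For ChIP over input they were 15% above and 3.49% below, and for width 16.9% above and 12.6% below. The 49 bins with less covered length lay on all 12 chromosomes, and whether their share differed between chromosomes was not tested. Of the tested bins they were 7 of 28 on chromosome 12 and 6 of 36 on each of chromosomes 3 and 4. There were 5 of 28 on chromosome 8 and 5 of 23 on chromosome 10. At the low end were chromosome 1 with 1 of 43, chromosome 2 with 2 of 36 and chromosome 9 with 2 of 23.

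Reads gave a finer view. The ChIP reads in the peaks of each bin, taken relative to all ChIP reads in peaks of the library, differed in 10 of 373 bins, 2.68% of those tested (edgeR quasi-likelihood test, adjusted p at most 0.05, 54 bins at an unadjusted p under 0.05). In 6 bins, 1.61%, oschz1 was higher and in 4, 1.07%, lower. For comparison, the values of the 2 genotypes did not overlap in 21.7% of bins with oschz1 higher and 19.8% with oschz1 lower. The 10 bins were on 6 chromosomes.

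The largest rise was at 5 to 6 Mb of chromosome 11. In reads scaled to the library's total in peaks (RPM), this bin held 2370 and 2315 RPM in oschz1 and 1738 and 1860 in NIP, a log2 difference of 0.38 (SE 0.0684, edgeR adjusted p = 1.36e-05). Its peaks numbered 133 and 115 in oschz1 against 99 and 97 in NIP, and they covered 134 and 118 kb in oschz1 against 99.0 and 95.4 kb in NIP. ChIP over input in those peaks did not move with it, at 1.43 and 1.501 in oschz1 and 1.46 and 1.53 in NIP. Input per kb of peak was 61.1 and 56.0 reads in oschz1 and 62.5 and 50.1 reads in NIP, close to the library means of 60.7 and 56.7 in oschz1 and 62.3 and 50.2 in NIP.

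The neighbouring bin at 4 to 5 Mb of chromosome 11 was also higher in oschz1. It held 2380 and 2415 RPM in oschz1 and 1982 and 1982 in NIP (log2 difference 0.27, SE 0.0654, edgeR adjusted p = 0.00278), and covered 132 and 119 kb in oschz1 against 108 and 98.2 kb in NIP. At 9 to 10 Mb of chromosome 1 there were 2499 and 2497 RPM in oschz1 and 2052 and 2068 in NIP (log2 difference 0.28, SE 0.0638, edgeR adjusted p = 0.00278). The covered length there was 141 and 123 kb in oschz1 and 117 and 105 kb in NIP. In all 3 of these bins the oschz1 libraries lay above both NIP libraries in reads, covered length and peaks. The smaller rises were at 20 to 21 Mb of chromosome 8 (0.21), 30 to 31 Mb of chromosome 3 (0.18) and 27 to 28 Mb of chromosome 3 (0.18), with edgeR adjusted p of 0.0198 to 0.0301.

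Of the 4 falls, the largest was at 12 to 13 Mb of chromosome 7. It held 2040 and 1894 RPM in oschz1 and 2430 and 2337 in NIP (log2 difference -0.28, SE 0.0656, edgeR adjusted p = 0.00278). Its peaks covered 125 and 104 kb in oschz1 and 155 and 133 kb in NIP. At 14 to 15 Mb of chromosome 2 there were 2608 and 2439 RPM in oschz1 and 2876 and 2928 in NIP (log2 difference -0.20, SE 0.0545, edgeR adjusted p = 0.0176), with 159 and 135 kb covered in oschz1 and 188 and 172 kb in NIP. The other falls were at 1 to 2 Mb and 6 to 7 Mb of chromosome 3, both at -0.18 with an edgeR adjusted p of 0.0363. Among bins whose values did not overlap in covered length, the third largest fall was at 12 to 13 Mb of chromosome 5, which was not called for reads, with 117 and 110 kb in oschz1 and 142 and 130 kb in NIP (log2 difference -0.26, limma adjusted p = 0.999). Across the 10 called bins, the differences in covered length and in peaks had the sign of the difference in reads in 10 of 10. The difference in ChIP over input had that sign in 5 of 10 and was at most 0.05 on the log2 scale. Reads per bin were counted only in the library's own peaks, so they move with the length called.

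The number of calls changed with the library size and with single libraries. With the recovered size of the whole ChIP library in place of reads in peaks, 0 bins passed, although all 10 differences kept their sign. At an unadjusted p under 0.05 there were then 17 bins lower and 3 higher in oschz1, against 25 lower and 29 higher with reads in peaks. Of the 10 bins, 5 were called again without oschz1 replicate 1, 1 without oschz1 replicate 2, 2 without NIP replicate 1 and 1 without NIP replicate 2. The bin at 5 to 6 Mb of chromosome 11 was among them each time (edgeR adjusted p between 8e-04 and 0.037). Those fits have 1 library in a group, which is assumed to vary like the 2 of the other genotype.

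**Figure D3:**
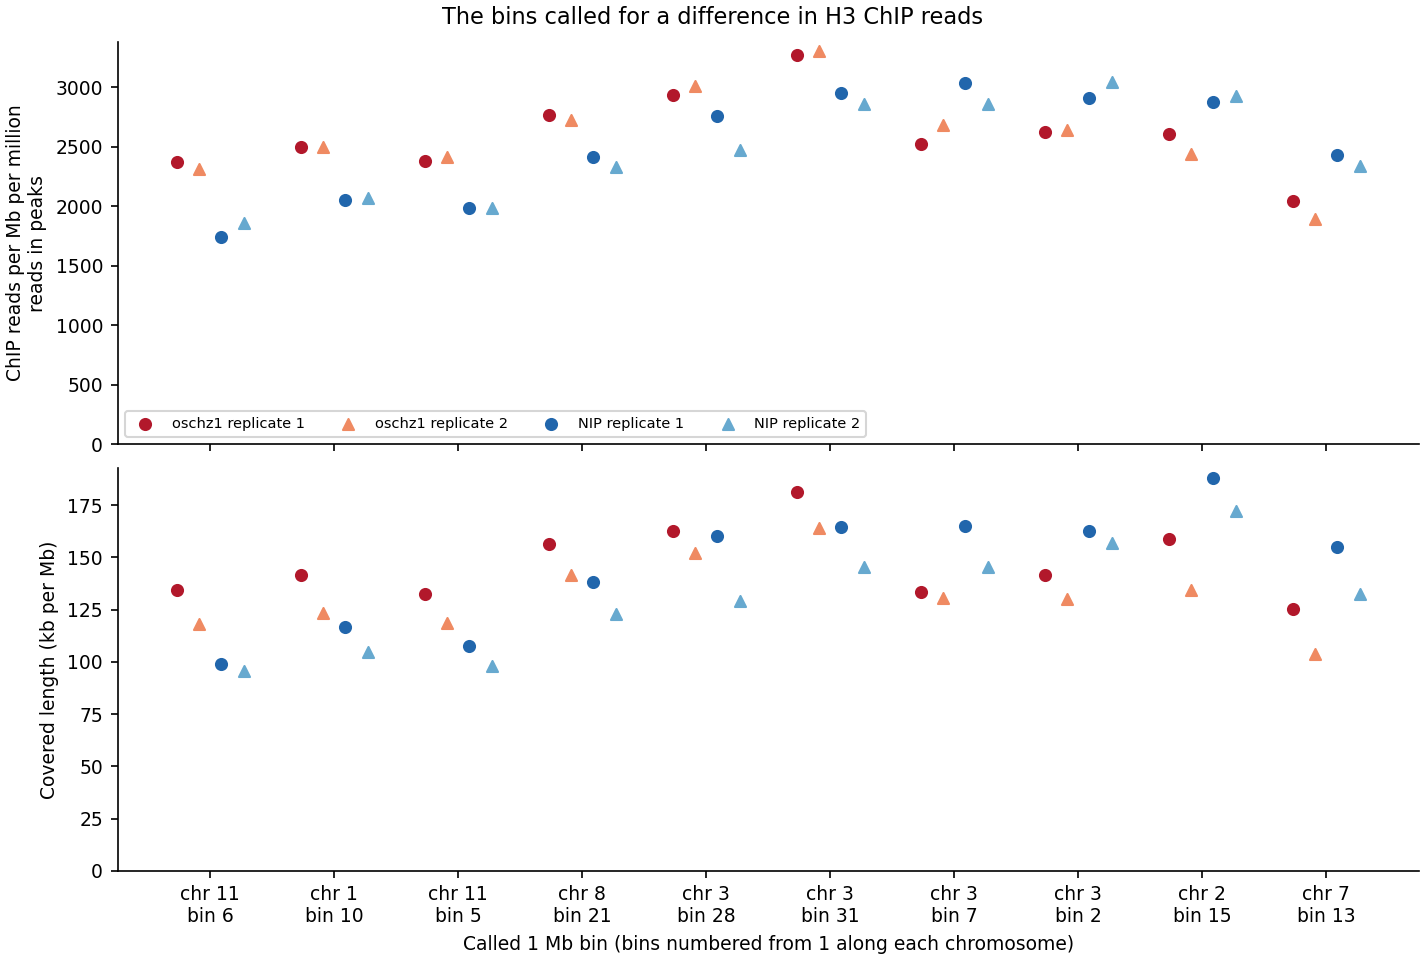
ChIP reads per Mb in RPM (top) and covered length in kb per Mb (bottom) in the 10 bins called for ChIP reads, with bins numbered from 1 along each chromosome so that bin 6 of chromosome 11 is 5 to 6 Mb. Each point is 1 library, oschz1 in reds left of NIP in blues; the genotypes do not overlap in reads in any of the 10 bins, with the widest gap in bin 6 of chromosome 11.

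Some of the excess in the called bins at 4 to 5 Mb and 5 to 6 Mb of chromosome 11 lay in stretches where NIP had no H3 peak at all. Chromosome 11 as a whole had no excess, with a difference in covered length of -3.10%. This search was made after the values were seen. A stretch counted when neither library of one genotype had an H3 peak in it and each library of the other had at least 5. With NIP as the genotype without peaks there were 5 such stretches, and with oschz1 as the genotype without peaks there were 0. Long stretches without peaks were otherwise common and mostly held few peaks of the other genotype. oschz1 had 646 of at least 25 kb, of which 158 held no NIP peak either, and the median number of NIP peaks, averaged over the 2 libraries, was 0.5. NIP had 615, of which 187 held no oschz1 peak either, with a median of 0.5 oschz1 peaks.

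The longest was Chr11:5919001-6030600, 111.6 kb. This stretch held 15 and 12 oschz1 peaks covering 15.0 and 11.2 kb, against 0 and 0 in NIP. It ran past the end of the called bin at 5 to 6 Mb. Chr11:6545401-6638400, 93.0 kb, held 16 and 12 oschz1 peaks covering 21.0 and 14.0 kb, against 0 and 0 in NIP. It lay outside the called bins. Both oschz1 libraries had peaks spread across these stretches. By definition each stretch ended at a NIP peak on either side. Chr11:4936001-4963600 and Chr11:4964001-4991400, which almost adjoin each other, held 5 and 6 oschz1 peaks each. The fifth, Chr10:8143201-8208200, 65.0 kb, held 5 and 6 oschz1 peaks covering 7 and 10.2 kb, against 0 and 0 in NIP.

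ChIP over scaled input in the oschz1 peaks of the 5 stretches was 1.24 to 1.80, against the library values of 1.462 and 1.505. Their input reads per kb were 0.88 to 1.14 times the library mean. H2A.Z peaks, called from other ChIP libraries against the same inputs, also differed there. In Chr11:5919001-6030600 H2A.Z peaks covered 12.4 and 13 kb in oschz1 and 2 and 2 kb in NIP. In Chr11:6545401-6638400 they covered 7.80 and 5.80 kb in oschz1 and 2.6 and 3 kb in NIP. The remaining 3 stretches had 0.6 to 3.4 kb under H2A.Z peaks in oschz1 and 0 to 0.2 kb in NIP. Reads outside peaks were not analysed here, so the H3 and input signal of NIP between its peaks in these stretches is not known. Leaving out the H3 peaks in the 5 stretches takes reads from oschz1 only, so the difference has to shrink, and the values are given with no test. The log2 difference was then 0.10 in the bin at 4 to 5 Mb of chromosome 11 and 0.25 in the bin at 5 to 6 Mb.

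**Figure D4:**
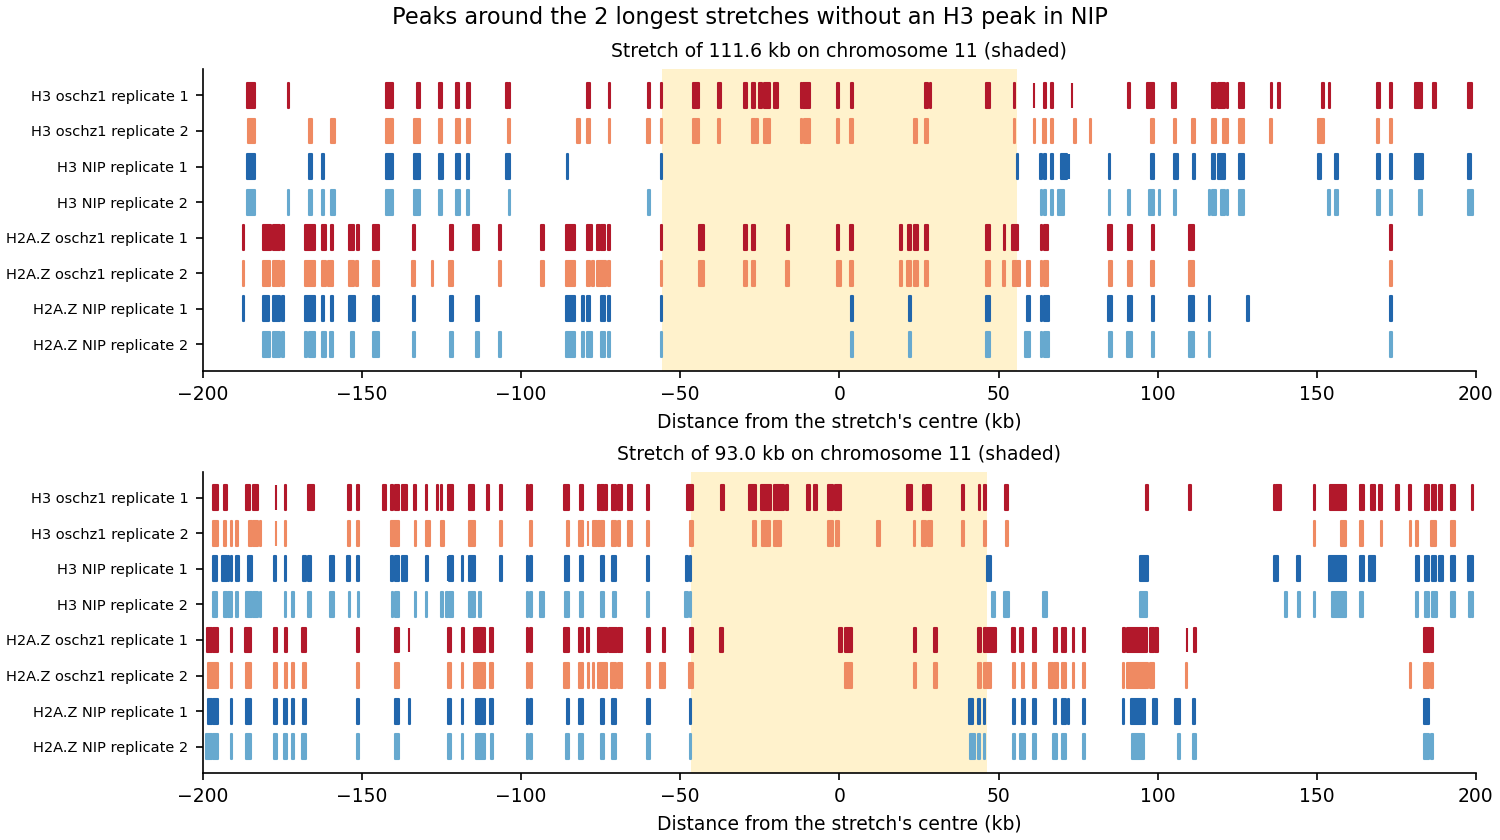
Peaks of each library as bars around the 2 longest stretches without an H3 peak in NIP (shaded), by distance from the centre of the stretch in kb (x axis); the upper 4 rows of each panel are H3 and the lower 4 H2A.Z, with oschz1 in reds above NIP in blues. Both oschz1 libraries have 12 to 16 H3 peaks in each shaded stretch and the NIP libraries have 0.

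The last question was where H3 peaks repeated. Of the oschz1 peaks, 70.6% of those in replicate 1 and 77.1% of those in replicate 2 overlapped a peak of the other replicate by at least 1 bp. In NIP the shares were 71.4% and 75.7%. Of the bases covered in either replicate, 53.2% were covered in both in oschz1 and 53.7% in NIP. Peaks repeated about as much across genotypes. The shares of bases covered in both of those covered in either were 53.6% for the 2 libraries numbered 1, 49.1% for those numbered 2, and 51.0% and 51.2% for the crossed pairs. Overlap was 4.59 to 4.88 times the product of the covered shares in the 6 pairs. The 2 deeper libraries shared as many bases across genotypes as the replicates did within one.

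By chromosome the share of bases covered in both replicates of those in either was 51.3% to 54.6% in oschz1 and 52.1% to 55.5% in NIP. Chromosome 2 was lowest in both genotypes, at 51.3% in oschz1 and 52.1% in NIP. Chromosome 10 was highest in oschz1, with 54.6% against 55.1% in NIP, and chromosome 12 was highest in NIP, with 53.5% in oschz1 against 55.5% in NIP. Chromosome 12, with the least covered, thus repeated as much as the others.

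Repetition depended on width. Of peaks of 200 to 400 bp, 52.9% and 64.5% repeated in oschz1 and 55.7% and 62.1% in NIP. Of peaks of 1000 to 1400 bp, 76.8% and 81.4% repeated in oschz1 and 76.6% and 80.8% in NIP. Of peaks of at least 2600 bp, 91.4% and 93.3% repeated in oschz1 and 92.4% and 95.3% in NIP. Wider peaks meet another peak more easily, but the share of their bases covered in the other replicate also grew, to 76.0% and 83.6% in oschz1 and 79.0% and 86.1% in NIP at 2600 bp and more, against 51.8% and 63.2% in oschz1 and 54.4% and 61.2% in NIP at 200 to 400 bp. By deposited fold the share of repeated peaks was highest at 1.5 to 2 in every library and dropped above that. In NIP replicate 2 it did not grow from the lowest class to the next (75.4% and 75.2%). In the lowest of 5 fold classes the share was 66.2% and 72.5% in oschz1 and 68.5% and 75.4% in NIP. The class of fold 3 and more held 1343 and 1672 oschz1 peaks and 916 and 1662 NIP peaks. Of these, 60.1% and 70.04% repeated in oschz1 and 56.0% and 64.6% in NIP, below the 74.5% and 80.4% in oschz1 and 74.3% and 77.9% in NIP at a fold of 1.5 to 2. The median fold of repeated peaks was 1.504 and 1.55 in oschz1 and 1.48 and 1.525 in NIP, against 1.45 and 1.48 in oschz1 and 1.45 and 1.516 in NIP for peaks that did not repeat. The class of highest fold was the least repeated of 5 in each library.

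**Figure D5:**
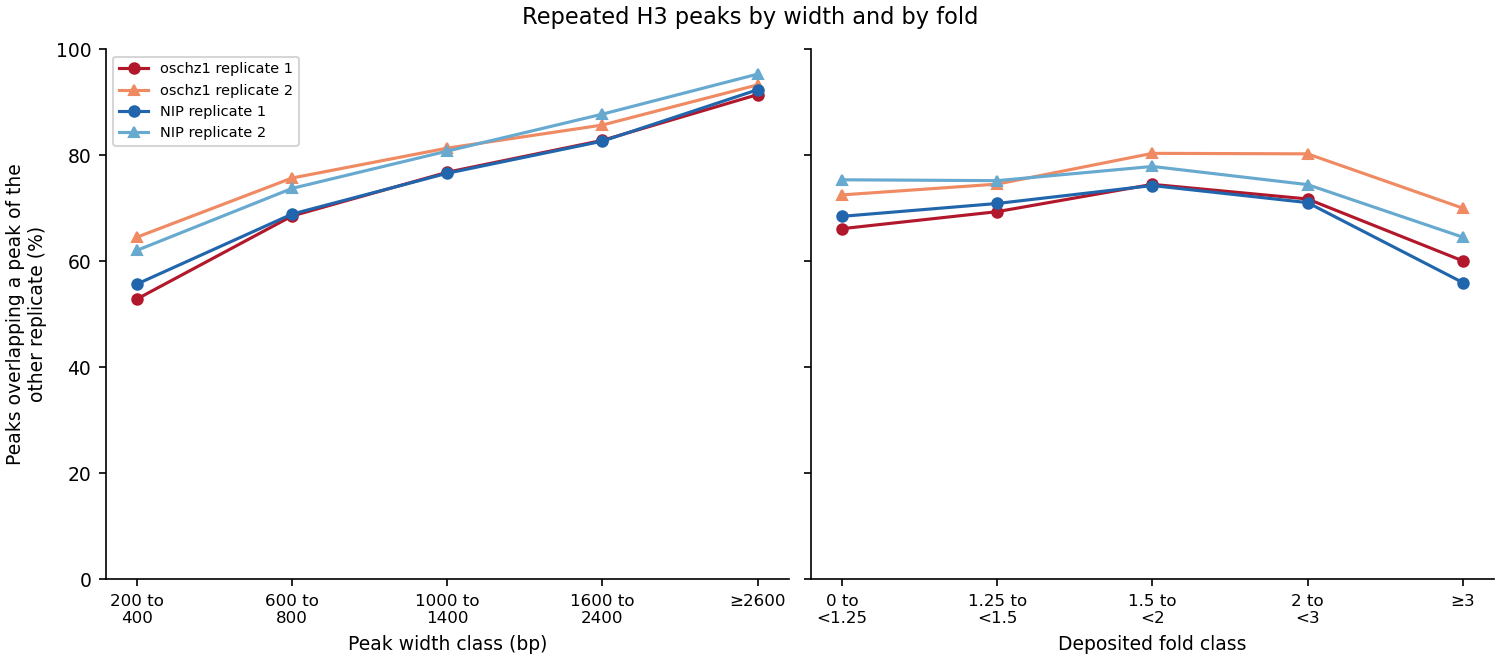
Percentage of H3 peaks that overlap a peak of the other replicate of the genotype by at least 1 bp (y axis) by peak width in bp (left) and by deposited fold (right), for each library, oschz1 in reds and NIP in blues. The share climbs with width to 91.4% to 95.3% at 2600 bp and more, and drops at a fold of 3 and more to 56.0% to 70.04%.

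Merging the peaks of all 4 libraries gave 74825 regions, of which 25146, 33.6%, had a peak in every library, and 17912 in 1 library only. The regions in all 4 libraries were wider, with a median of 1200 bp against 600 bp in those of 1 library, and held 64.1% of ChIP reads in peaks. A merged region spans all its overlapping peaks, so the merging itself makes regions of more libraries wider. Bases covered in all 4 libraries came to 24.98 Mb, 28.7% of the bases covered in any and 6.69% of the 12 chromosomes. Bases covered in exactly 2 libraries were 3.51 Mb for the oschz1 pair, 3.95 Mb for the NIP pair, 3.76 Mb for the replicate 1 pair, 1.85 Mb for the replicate 2 pair, and 2.58 and 2.68 Mb for the crossed pairs. The amounts were alike for the pair of each genotype and for the replicate 1 pair. In the replicate 1 pair, shared number and greater depth cannot be told apart. Of the 74825 regions, 15008 had a peak in exactly 2 libraries. Among these, 2915, or 7.81 per Mb, were in both oschz1 libraries and 3278, or 8.79 per Mb, in both NIP libraries. The rest were in 1 library of each genotype.

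H2A.Z differed by whether H3 peaks were there at all. In oschz1, H2A.Z peaks covered 9.64% of bases under no H3 peak, and 32.9%, 39.6%, 42.4% and 38.6% of bases covered in 1, 2, 3 and 4 H3 libraries. In NIP, H2A.Z peaks covered 8.79% of bases under no H3 peak and 32.3%, 39.3%, 42.2% and 38.3% in the same order. More repeated H3 bases did not hold steadily more H2A.Z. Bases counted as H2A.Z lay under a peak in both H2A.Z libraries of the genotype. H3 and H2A.Z libraries of the same genotype and number were called against the same input, so their peaks are not independent. In oschz1 the share at 4 H3 libraries was between 26.6% on chromosome 12 and 49.6% on chromosome 1.

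Over the bins, the bases covered in all 4 libraries were a median of 28.3% of those covered in any. The highest shares were from 27 Mb to the last peak of chromosome 12 (44.0%), 4 to 5 Mb of chromosome 4 (41.3%), 18 to 19 Mb of chromosome 6 (40.7%), 19 to 20 Mb of chromosome 3 (39.1%) and 13 to 14 Mb of chromosome 10 (38.8%). The lowest were at 34 to 35 Mb of chromosome 2 (16.1%), 31 to 32 Mb of chromosome 4 (16.5%), 33 to 34 Mb of chromosome 1 (17.7%), 1 to 2 Mb of chromosome 11 (18.0%) and 1 to 2 Mb of chromosome 3 (18.8%). The bin at 34 to 35 Mb of chromosome 2 held 99.8 and 80 kb under peaks in oschz1 and 102 and 86.0 kb in NIP. The bin at 18 to 19 Mb of chromosome 6 held 123 and 116 kb in oschz1 and 123 and 115 kb in NIP, below the median bin of each library, so a high share was not limited to bins with much coverage.

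Single regions were named by the highest ratio and by the most shared cover. Among the 10642 shared regions that had 50 or more input reads in every library, the highest minimum ratio to scaled input was at Chr10:3999601-4001800, with 1.99 and 2.07 in oschz1 and 2.08 and 2.09 in NIP. Chr8:18509001-18510200 followed with 1.96 and 1.96 in oschz1 and 2.15 and 2.09 in NIP, and it was the only one of the 5 wholly under H2A.Z peaks in all 4 H2A.Z libraries. The others were Chr4:13060201-13061800, Chr11:14057001-14058800 and Chr5:15114401-15115600, with a minimum ratio of 1.91 to 1.92 and a region length of 1.20 to 1.80 kb. Over whole libraries the ratio was 1.462 and 1.505 in oschz1 and 1.451 and 1.496 in NIP.

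The regions with the most bases covered in all 4 libraries, summed over the region, were Chr1:7633801-7652200 (14.6 of 18.4 kb), Chr9:13225601-13239200 (13 of 13.6 kb), Chr2:7783201-7796400 (12 of 13.2 kb), Chr9:2565801-2580600 (11.6 of 14.8 kb) and Chr10:5611601-5624800 (11.4 of 13.2 kb). In the first, peaks covered 15200 and 17200 bp in oschz1 and 16600 and 16400 bp in NIP, at a ratio to input of 1.45 and 1.57 in oschz1 and 1.35 and 1.36 in NIP. These broad regions were nearly free of H2A.Z, with at most 0.8 kb under H2A.Z peaks in any library.

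Within the 25146 shared regions, ChIP reads did not differ at an adjusted p of 0.05 in any region (edgeR, 0%, with 513 lower and 1533 higher in oschz1 at an unadjusted p under 0.05; DESeq2 called 173). The split depended on the scaling, with 806 lower and 1163 higher for the recovered library size and 845 lower and 1125 higher for TMM factors. Over these regions the log2 difference had a median of 0.06, and it lay between 0.06 and 0.07 on each of the 12 chromosomes to 2 decimals. With the recovered size of the whole library the median was 0.005, with 0 calls, so the general shift followed the library size used. Among the 8273 regions of which at least 80% was covered in all 4 libraries, edgeR called 63, 60 higher and 3 lower in oschz1. At least 2 of the 60 were on each chromosome. The counts were 10 of 953 such regions on chromosome 1, 9 of 677 on chromosome 7 and 9 of 626 on chromosome 11. No test compared the chromosomes in these counts. Among all 8273, edgeR called 145 with the recovered library size, 103 higher and 42 lower, and 154 with TMM factors, 119 higher and 35 lower. Both of these fits were added after seeing the data.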

How the data were processed

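The authors aligned reads to the MSU rice genome and removed low-quality alignments and PCR duplicates. Their processing notes name Bowtie2, SAMtools, SICER and deepTools; the peak caller used for H3 is not given in the sources used here, although all peaks lie on a 200 bp grid. For each peak the deposited tables give counts of ChIP and input reads, a p-value, a false discovery rate (q-value) and a fold. The deposited fold is a ratio of ChIP to scaled input reads. Reads outside peaks were not analysed here, so library sizes are relative values recovered from counts and fold.

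RPM take a library's total of ChIP reads inside peaks as the base. Bins ran from the start of each chromosome in steps of 1 Mb, with the last kept from 0.5 Mb. Covered length, peaks, width and ChIP over input were tested as log2 values with limma 3.58.1. A pseudocount of 1 was added for covered length and peaks only. ChIP reads were tested with edgeR 4.0.16 quasi-likelihood tests. Both kinds of test ran in R 4.3.3 with Benjamini-Hochberg adjustment. DESeq2 1.42.0 was an alternative. Means of 2 libraries were compared by exact permutation on both sides. Named bins were the called ones, the 3 largest covered-length changes each way and the 5 with the highest and lowest shared cover; named regions were the 5 with the highest minimum ratio, at 50 or more input reads, and the 5 with the most shared cover. The comparisons and rules were chosen with earlier results of these data known, and the search for stretches and further scalings of the most shared regions were added after seeing the data. The fits were run on simulated data with changes larger than those of the called bins. Such a run does not show how they perform at changes of that size.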

Additional observations from a re-analysis of the deposited data

How the results depend on the processing

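No called bin changed sign under the alternatives run. The genotype differences over all chromosomes did: in peaks per Mb it was 1.62 at a false discovery rate of at most 1e-10, and in covered length 2.09 kb per Mb at a fold of at least 2. When 1 library was left out, it was -9.83 to 0.942 in peaks and -11.7 to 2.76 kb in covered length. With a false discovery rate of at most 1e-10 the width difference was -50.4 bp, and with a fold of at least 2 it was 37.4 bp. With that fold the difference in peaks was 2.02 per Mb. Unscaled input gave a difference in ChIP over input of -0.119. The mean share of repeated peaks was 47.3% in oschz1 and 42.1% in NIP at the stricter rate, 24.4% in oschz1 and 20.1% in NIP at a fold of at least 2, and 64.8% in each genotype when 50% of a peak had to overlap. Called bins for covered length numbered 7 with the replicate block (6 lower, 1 higher) and 2 in bins of 0.5 Mb, and for width 1 in bins of 0.5 Mb. Chromosomes called for their share of peaks numbered 0 to 3 when 1 library was left out. Bins called for ChIP reads numbered 0 with the recovered library size, 49 with DESeq2, 5 with the replicate block and 1 to 6 when 1 library was left out. Regions called numbered 173 with DESeq2 and 63 among those at least 80% covered in all 4 libraries, 145 there with the recovered library size and 154 with TMM factors. Over 373 bins, the replicate 1 minus replicate 2 differences of the 2 genotypes correlated at -0.15 in covered length and in reads. In the other measures the correlation was 0.02 to 0.09. It cannot show an offset common to all bins, such as replicate 1 lying above replicate 2 in both genotypes, so it does not settle whether the numbers are pairs. The main fits left them unpaired, and the replicate block paired them. At an unadjusted p under 0.05 (limma), covered length gave 56 bins with the replicate block, 49 lower and 7 higher, against 3 in the main fit. The causes of these changes were not tested. With 2 libraries a group, depth differing more between replicates than between genotypes limits every comparison.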
